A study of Mus musculus with 8 samples.

Results

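Genes of epithelial and mesenchymal cell adhesion were followed in epidermis of mouse embryos with and without a keratinocyte deletion of Noc2l (Nir), a regulator of histone acetylation. The 5 genes, out of 23146 in the data, were chosen by name. They are the classical cadherin genes Cdh1, Cdh3, Cdh2 and Cdh11, and Epcam, which encodes an adhesion molecule of epithelia. Each gene was represented by its RefSeq transcript with the largest total count, and all 5 passed the filter on low counts. RNA was sequenced from 8 libraries of separated epidermis, with 2 libraries in each of 4 groups: control and Nir KO, each sampled at E15.5 and at E17.5 (days of embryonic development). Control embryos are labelled as Nir floxed, and in the knockouts the floxed alleles were combined with Krt14-Cre. The promoter of Krt14 is active in basal keratinocytes, so cells of other origin in the preparation are not targeted. The labels do not say whether control embryos carried Cre, which exons are floxed, or whether replicates came from separate embryos.

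Gene counts summed to between 25226357 and 28895657 per library. Noc2l itself was at 97.4 to 121 CPM (counts per megaread, scaled by effective library size) in the control libraries and at 85.4 to 95.6 CPM in the knockout libraries, which does not check the genotype labels since the deleted exons are not known. Keratinocyte and dermal markers were present in every library. The summed level of 9 basal keratinocyte markers was 7106 to 7654 CPM in controls and 1437 to 2256 CPM in knockouts, and that of 12 dermal fibroblast markers was 28810 to 34861 CPM in controls and 80337 to 107642 CPM in knockouts. In bulk RNA, fewer cells of a type and less RNA per cell cannot be told apart.

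Classical cadherins are calcium-dependent adhesion proteins that span the membrane, bind cadherins of the next cell with their outer part, and hold beta-catenin, p120-catenin and, through alpha-catenin, the actin cytoskeleton with their inner part. E-cadherin (Cdh1) joins keratinocytes in all living layers of the epidermis, and P-cadherin (Cdh3) is found in the basal layer and is rich in hair placodes. N-cadherin (Cdh2) and the type II cadherin OB-cadherin (Cdh11) are used by mesenchymal cells, among them fibroblasts, and N-cadherin also by nerve and muscle. Epcam is unrelated to cadherins in sequence and is found in simple and embryonic epithelia, and in skin also in follicle cells and Langerhans cells.

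Cdh3 and Cdh1 are tandem neighbors on the plus strand of chromosome 8 (GRCm38), Cdh3 from 106510852 to 106556911 and Cdh1 from 106603350 to 106670247. The gap between them is 46.4 kb and holds 0 annotated protein-coding genes. Cdh11 lies on the minus strand of the same chromosome from 102632095 to 102785493 and Epcam on the plus strand of chromosome 17 from 87635979 to 87651127. For each of the 5 genes, 0 other genes have exons that overlap its exons in GENCODE M21, so counts without strand are not shared with a partner on the other strand. The genes are also distinct in sequence, which bears on whether a read could be assigned to the wrong one. The longest exact run shared by the Cdh1 and Cdh3 transcripts has 16 bases, lies in the coding part of both, and is shown here as in GENCODE M21.
Cdh1 and Cdh3: ttttctacagcatcac
The longest run shared by any pair of the 5 transcripts has 26 bases (Cdh1 and Cdh2).

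The epithelial genes Cdh1, Cdh3 and Epcam fell in knockout epidermis at both stages, and the mesenchymal genes Cdh2 and Cdh11 rose at both. The falls were larger than the rises, from 3.97-fold (Cdh1 at E15.5) to 15.99-fold (Cdh3 at E17.5) against rises of 1.53-fold to 2.04-fold. All 5 genes passed the test at each stage (edgeR's quasi-likelihood test, adjusted p at most 0.0026). Among the 16342 genes tested, 45.5% passed at E15.5 (22.3% lower and 23.2% higher) and 53.5% at E17.5 (26.7% lower and 26.7% higher), so a call by itself is common in these data. The control and knockout libraries of each of the 5 genes did not overlap at either stage, which held for 74.4% of all genes at E15.5 and 78.1% at E17.5. With libraries scaled by their totals alone, the E17.5 calls were 3295 higher and 6284 lower in place of 4371 and 4364, and the median of all genes was -0.23 on the log2 scale. The directions of all 5 genes were unchanged, also relative to that median. Under that scaling Cdh2 was at 0.82 and Cdh11 at 0.41, without the median taken off.

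**Figure D1:**
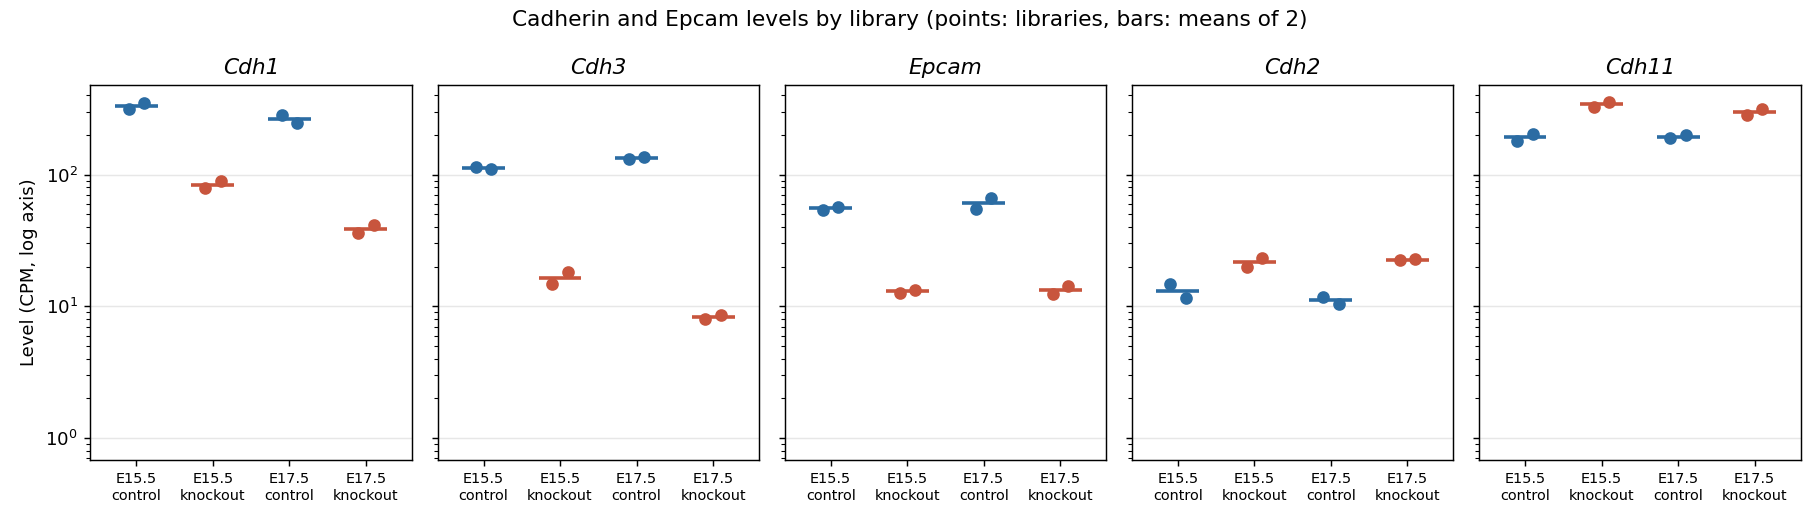
Level of each gene in every library, in CPM on a log axis, by stage and genotype (points are libraries, bars the means of 2). Knockout points lie below the control points for Cdh1, Cdh3 and Epcam and above them for Cdh2 and Cdh11, at both stages.

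Cdh1, the main cadherin of keratinocytes, stood at 315 and 350.1 CPM in E15.5 controls and at 78.7 and 88.9 CPM in E15.5 knockouts. At E17.5 it stood at 284 and 248 CPM in controls and at 36.2 and 41.4 CPM in knockouts. The E17.5 knockout libraries were the lowest of the 4 groups, and no control library came near a knockout library. The log2 fold change was -1.99 ± 0.12 at E15.5 (SE, n = 2 per group; edgeR, adjusted p = 2.6e-07) and -2.78 ± 0.13 at E17.5 (adjusted p = 1.6e-08).

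Cdh3, the cadherin of basal and placode keratinocytes, had the largest change of the 5 genes at both stages. It was measured in E15.5 controls at 114 and 110.2 CPM and in E15.5 knockouts at 14.7 and 18.3 CPM. At E17.5 the control libraries held 131 and 136 CPM and the knockout libraries 8.03 and 8.66 CPM. Control libraries lay within 110.2 to 136 CPM over both stages, while knockout libraries were lower at the later stage. The log2 fold change was -2.76 ± 0.12 at E15.5 (edgeR, adjusted p = 2.4e-08) and -4.00 ± 0.13 at E17.5 (adjusted p = 2.1e-09). Cdh3 has a second RefSeq transcript, whose counts differed by few reads (3002 against 3010 in E15.5 control replicate 1), so the choice of transcript has little bearing. Markers of hair placodes, where Cdh3 is high, fell in the same libraries, 8 of 8 at each stage (median -3.91 at E15.5 and -3.31 at E17.5), and their summed level was 322 to 395 CPM in controls and 41.3 to 43.7 CPM in knockouts. Their part in the Cdh3 result was not tested. Of all genes tested, 22.3% fell at E15.5 and 26.7% at E17.5.

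Epcam fell by a similar amount at both stages. It was at 54.2 and 56.7 CPM in E15.5 controls and 12.6 and 13.4 CPM in E15.5 knockouts. At E17.5 it was at 55.2 and 66.3 CPM in controls and 12.4 and 14.2 CPM in knockouts. The 4 knockout libraries lay within 1 narrow range, whatever the stage. The log2 fold change was -2.09 ± 0.13 at E15.5 (edgeR, adjusted p = 3.0e-07) and -2.19 ± 0.13 at E17.5 (adjusted p = 1.3e-07). Cd207, a marker of Langerhans cells, which also carry Epcam, had 0 counts in all 8 libraries. Whether Langerhans cells make Cd207 or Epcam this early was not tested, so the 0 counts do not tell if such cells were present. The summed level of the 5 Langerhans markers was 28.3 and 30.7 CPM in E15.5 controls and 45.9 and 39.2 CPM in E15.5 knockouts. The later libraries had sums of 34.4 and 47.2 CPM (E17.5 controls) and of 77.7 and 89.2 CPM (E17.5 knockouts). The 4 Langerhans markers tested were Cd74, H2-Aa, H2-Ab1 and H2-Eb1, so these sums rest on them and not on Cd207. Whether Langerhans cells were their source was not tested. Of these 4, 1 rose at E15.5 and 4 rose at E17.5, and 7 of 7 myeloid markers tested rose at both stages (medians 1.23 and 2.01). Their part in the Epcam result was not tested. Of 7 Merkel cell markers, 5 fell and 1 rose at E15.5 and 3 fell and 2 rose at E17.5. Among all genes tested, 23.2% rose and 22.3% fell at E15.5, and 26.7% rose and 26.7% fell at E17.5.

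Of the 5 genes, 1 had an entry in the RefSeq promoter table (GRCm38.p6), Epcam. The 250 bases before its start site are chr17:87635729-87635978 on the plus strand. E-boxes, sites bound by Zeb1 among other proteins, were among the motifs searched. Capitals mark both matches of the E-box CAGGTG (either strand, here once as CACCTG) and 1 match of the GC box GGGCGG (here as CCGCCC).
Epcam: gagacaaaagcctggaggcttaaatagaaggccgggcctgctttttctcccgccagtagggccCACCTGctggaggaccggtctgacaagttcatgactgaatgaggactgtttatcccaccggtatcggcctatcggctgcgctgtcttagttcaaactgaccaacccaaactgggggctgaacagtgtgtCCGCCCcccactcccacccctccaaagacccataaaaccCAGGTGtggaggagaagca
The E-box matches start 187 and 19 bases before the start site, and both are also matches of the general E-box CANNTG. Of 32851 promoters in the table, 17.2% hold CAGGTG on either strand in the same window and 2.06% hold it at least 2 times. The GC box is found in 32.7% of them. The window holds 0 matches of the Grainyhead site AACCGGTT, of CCAAT or of TATAAA. AACCGGTT is found in 0.12% of the promoters, CCAAT in 33.8% and TATAAA in 12.4%, so the absence of AACCGGTT is usual. Shorter or inexact forms of the Grainyhead site were not counted. A match of letters is a description of the sequence and not evidence of binding.

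Cdh2, the neural and mesenchymal cadherin, lies on the minus strand of chromosome 18 from 16588877 to 16809246. It had the lowest levels of the 5 genes in control epidermis. The E15.5 libraries held 14.7 and 11.6 CPM in controls and 19.95 and 23.2 CPM in knockouts. The E17.5 libraries held 11.8 and 10.4 CPM in controls and 22.5 and 22.7 CPM in knockouts. The groups did not overlap at either stage, though at E15.5 the higher control and the lower knockout library were close. The log2 fold change was 0.71 ± 0.15 at E15.5 (edgeR, adjusted p = 0.0026) and 1.03 ± 0.15 at E17.5 (adjusted p = 1.7e-04).

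Cdh11, the cadherin of osteoblasts and fibroblasts, was second in level only to Cdh1 in controls, per CPM and per kilobase. It stood at 179.8 and 204 CPM in E15.5 controls and at 325 and 355 CPM in E15.5 knockouts. At E17.5 it stood at 188 and 199.9 CPM in controls and at 283 and 312 CPM in knockouts. Control libraries lay close together at both stages, and each knockout library lay above all 4 controls. The log2 fold change was 0.83 ± 0.11 at E15.5 (edgeR, adjusted p = 1.1e-04) and 0.62 ± 0.11 at E17.5 (adjusted p = 7.0e-04).

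Markers of the cells that use Cdh2 and Cdh11 rose in the same libraries. Beside the marker counts given here, 23.2% of all genes tested rose and 22.3% fell at E15.5, and 26.7% rose and 26.7% fell at E17.5. Of 12 dermal fibroblast markers, 12 rose at E15.5 (median 1.23) and 11 at E17.5 (median 1.32). Of 8 skeletal muscle markers, 7 rose at E15.5 (median 0.77) and 8 at E17.5 (median 1.45), with a summed level of 8726 to 11003 CPM in controls and 15746 to 28238 CPM in knockouts. Of 8 Schwann cell and neuron markers, 4 rose and 3 fell at E15.5, and 5 rose and 3 fell at E17.5. The part of these cells in the rise of Cdh2 and Cdh11 was not tested. On the epithelial side, 8 of 9 basal keratinocyte markers fell at each stage (medians -1.82 and -2.91), with Krt14 at -1.91 at E15.5 and -1.59 at E17.5, and 7 of 7 suprabasal keratinocyte markers fell at each stage (medians -3.80 and -5.25). The summed level of the suprabasal markers was 81275 and 84163 CPM in E15.5 controls and 4962 and 4756 CPM in E15.5 knockouts. The E17.5 control libraries held 52976 and 40447 CPM of them, and the E17.5 knockouts 1262 and 1095 CPM. The part of both keratinocyte lists in the falls of Cdh1, Cdh3 and Epcam was not tested either. Of 8 periderm markers, 6 rose and 2 fell at each stage, so not all epithelial genes were lower.

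**Figure D2:**
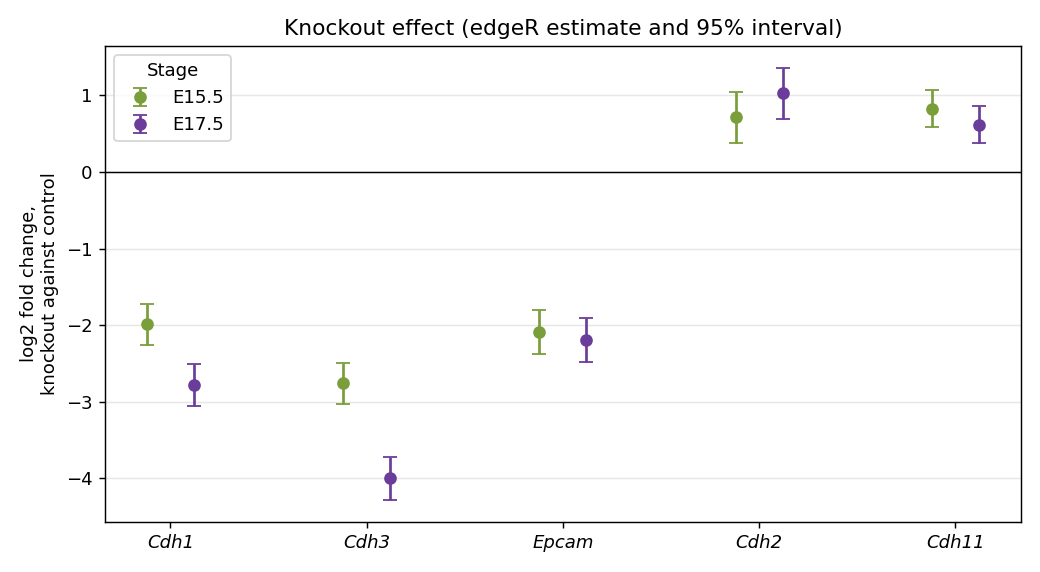
Log2 fold change of each gene in knockout against control epidermis at E15.5 and E17.5 (points are edgeR estimates, bars their 95% intervals). Cdh1, Cdh3 and Epcam lie between -1.99 and -4.00 and Cdh2 and Cdh11 between 0.62 and 1.03, and the intervals of the stages are apart for Cdh1 and Cdh3.

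The knockout effect on Cdh3 and Cdh1 was larger at E17.5 than at E15.5. The difference between the effects was -1.24 ± 0.17 for Cdh3 (SE on the log2 scale; edgeR's test of the difference, adjusted p = 0.0016) and -0.79 ± 0.17 for Cdh1 (adjusted p = 0.022). Of all genes tested, 4.35% passed this test (1.88% higher and 2.47% lower, 308 and 403 genes), or 142 and 655 genes with library totals as the only scaling. The Cdh3 difference held with any 1 library left out. The Cdh1 difference kept its size but not its call without E15.5 control replicate 1 (-0.72, adjusted p = 0.089), E15.5 knockout replicate 2 (-0.72, 0.095), E17.5 control replicate 1 (-0.69, 0.053) or E17.5 knockout replicate 1 (-0.71, 0.11). For Epcam the difference was -0.10 with a 95% interval from -0.49 to 0.29, for Cdh2 0.31 (-0.16 to 0.78) and for Cdh11 -0.21 (-0.56 to 0.14), and these did not pass (adjusted p = 0.84, 0.51 and 0.55).

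In control epidermis none of the 5 genes passed the test between E15.5 and E17.5 (edgeR, adjusted p from 0.11 for Cdh1 to 0.96 for Cdh11), while 10.9% of all genes did (3.15% higher and 7.7% lower). At an unadjusted p under 0.05, Cdh1 (-0.32 ± 0.12) and Cdh3 (0.25 ± 0.11) were past the threshold, and Cdh3 passed after adjustment only with library totals as the scaling (0.45, adjusted p = 0.037). In knockout epidermis Cdh1 fell between the stages by 1.11 ± 0.12 on the log2 scale (adjusted p = 8.2e-05) and Cdh3 by 0.99 ± 0.13 (adjusted p = 2.8e-04), where 6.91% of all genes fell and 6.19% rose (13.1% in all). The other genes did not pass in knockouts. Their changes were 0.03 for Epcam (95% interval -0.26 to 0.32), 0.07 for Cdh2 (-0.26 to 0.39) and -0.19 for Cdh11 (-0.44 to 0.05).

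Dividing CPM by transcript length allows levels of different genes to be compared. In E15.5 controls Cdh1 led with 75.1 ± 5.6 CPM per kilobase (SD, n = 2), followed by Cdh11 with 34.0 ± 3.0, Epcam with 27.2 ± 0.88, Cdh3 with 25.5 ± 0.55 and Cdh2 with 2.72 ± 0.46. In E15.5 knockouts Cdh11 led with 60.2 ± 3.8 CPM per kilobase, before Cdh1 with 18.9 ± 1.6, Epcam with 6.37 ± 0.26, Cdh2 with 4.45 ± 0.47 and Cdh3 with 3.77 ± 0.58. The order of Cdh1 and Cdh11 was thus exchanged in all 4 knockout libraries. The order was Cdh1 (60.0 ± 5.8), Cdh11 (34.3 ± 1.5), Cdh3 (30.5 ± 0.66), Epcam (29.8 ± 3.8) and Cdh2 (2.29 ± 0.21) in E17.5 controls, and Cdh11 (52.7 ± 3.7), Cdh1 (8.76 ± 0.82), Epcam (6.52 ± 0.62), Cdh2 (4.67 ± 0.04) and Cdh3 (1.90 ± 0.10) in E17.5 knockouts. Libraries of neighbors in these orders overlapped for Epcam and Cdh3 in E17.5 controls and for Cdh2 and Cdh3 in E15.5 knockouts. Cdh3 was last in E17.5 knockouts, below Cdh2 in each library, while it was above Cdh2 in every control library.

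Ratios between genes of 1 library do not depend on the scaling between libraries. Per kilobase, Cdh1 was 23.4 and 33.0 times as high as Cdh2 in E15.5 controls and 4.31 and 4.19 times in E15.5 knockouts. At E17.5 the ratio was 26.3 and 26.0 in controls and 1.76 and 1.99 in knockouts. The ratio was 6.54-fold lower in knockouts at E15.5 and 13.98-fold lower at E17.5, yet Cdh1 stayed above Cdh2 in every library. With 2 libraries against 2 the smallest p of an exact permutation test is 0.333 (two-sided), so these ratios are given as values.

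Within the epithelial pair, the ratio of Cdh3 to Cdh1 was lower in every knockout library than in any control library. Cdh3 over Cdh1 was 0.364 and 0.318 per kilobase in E15.5 controls and 0.189 and 0.208 in E15.5 knockouts. It was 0.468 and 0.553 in E17.5 controls and 0.224 and 0.212 in E17.5 knockouts. The 4 knockout libraries lay close together. Epcam over Cdh1 was 0.373 and 0.352 in E15.5 controls and 0.348 and 0.326 in E15.5 knockouts, a change of -0.10 on the log2 scale, and at E17.5 it was 0.422 and 0.581 in controls and 0.744 and 0.745 in knockouts (a change of 0.59).

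Cdh11 over Cdh2 did not separate the genotypes at E15.5, with 10.5 and 15.1 in controls and 13.97 and 13.1 in knockouts. At E17.5 it was 13.6 and 16.5 in controls and 10.8 and 11.8 in knockouts. The E15.5 change of 0.11 on the log2 scale was -0.15 without E15.5 control replicate 1, so it had no set direction.

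**Figure D3:**
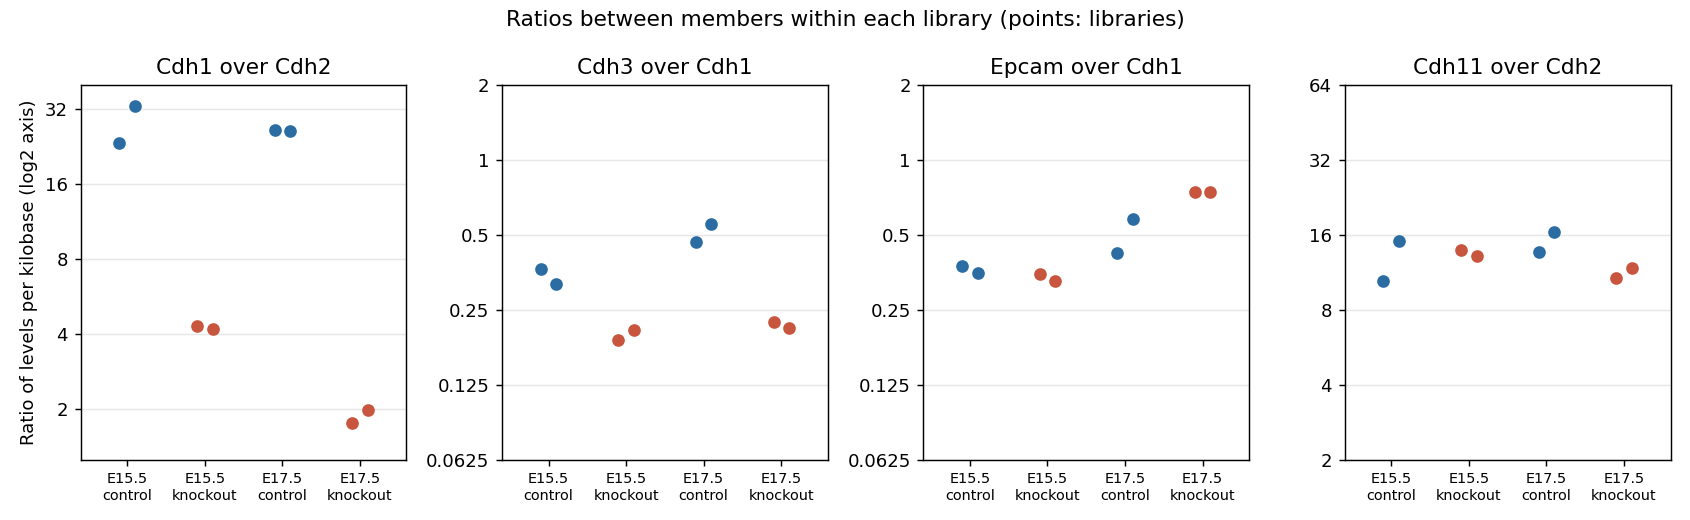
Ratios of levels per kilobase within each library (points) on log2 axes of equal span. Cdh1 over Cdh2 drops from 23.4 to 33.0 in controls to 1.76 to 4.31 in knockouts, Cdh3 over Cdh1 is lower in every knockout library, and Cdh11 over Cdh2 overlaps between genotypes at E15.5.

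More of the other classical cadherins rose than fell. Of 14 listed, 12 could be tested; Cdh12 and Cdh20 had 18 and 30 counts over all libraries. At E15.5, 7 rose and 1 fell (median 0.98, against 0.00 for all genes), and at E17.5, 9 rose and 1 fell (median 1.15, against -0.02). Among all genes 23.2% rose and 22.3% fell at E15.5, and 26.7% rose and 26.7% fell at E17.5. Without E17.5 knockout replicate 1 the number risen at E17.5 was 4, and without replicate 2 it was 5. The vascular cadherin gene Cdh5 rose from 148 ± 12.5 to 248.8 ± 8.0 CPM at E15.5 (0.75 ± 0.10, edgeR adjusted p = 1.1e-04) and by 0.85 ± 0.10 at E17.5. Cdh15, the M-cadherin of muscle precursors, rose by 1.004 ± 0.16 and 1.84 ± 0.16, and Cdh19, a cadherin of Schwann cells, by 1.58 ± 0.24 and 1.44 ± 0.24. Endothelial markers, 8 of 8, and the muscle markers above rose in the same libraries, while the Schwann cell and neuron markers were mixed, as given above. The fallen gene, named here after its values were seen, was Cdh24, with -0.50 ± 0.18 at E15.5 (adjusted p = 0.042) and -0.80 ± 0.18 at E17.5 (adjusted p = 0.0028). The E15.5 call of Cdh24 was lost without any 1 of the 4 E15.5 libraries and without either E17.5 knockout library. Of 5 non-classical cadherins 1 rose at each stage, Cdh13, the membrane-anchored T-cadherin (0.64 ± 0.10 and 0.84 ± 0.10).

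The catenins and vinculin link cadherins to actin. Of 10 genes 5 fell and 1 rose at E15.5 (median -0.28), and 5 fell and 2 rose at E17.5 (median -0.31). Of all genes tested, 22.3% fell and 23.2% rose at E15.5, and 26.7% fell and 26.7% rose at E17.5. Jup, which encodes plakoglobin of adherens junctions and desmosomes, fell from 1561 ± 55.9 to 391 ± 25.3 CPM at E15.5 (-2.00 ± 0.12, edgeR adjusted p = 2.9e-07) and from 1004 ± 85.3 to 180.0 ± 10.5 CPM at E17.5 (-2.48 ± 0.13). Ctnnb1, which encodes beta-catenin, fell by 0.61 ± 0.12 and 0.80 ± 0.12 on the log2 scale, and Arvcf, of the p120 family, by 0.81 ± 0.11 and 0.36 ± 0.11. Ctnna3, an alpha-catenin of muscle, was at 0.67 ± 0.26 at E15.5 (adjusted p = 0.058) and rose by 1.5025 ± 0.26 at E17.5. Ctnna1, the alpha-catenin of most epithelia, was at -0.11 ± 0.10 and -0.07 ± 0.10 and did not pass (adjusted p = 0.40 and 0.58); it is named after its values were seen. The gene of this list that rose at E15.5 was Vcl, which encodes vinculin and no catenin (0.38 ± 0.12, adjusted p = 0.024; named after its values were seen), and its call was lost without either E15.5 control library or knockout replicate 2. At E17.5 the number risen, Vcl and Ctnna3, was 1 without control replicate 2 or either knockout library, and the number fallen was 3 without knockout replicate 2.

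Among 10 nectins, afadin and linkers of junctions, 5 fell and 2 rose at E15.5 (median -0.42) and 7 fell and 1 rose at E17.5 (median -0.62). The shares of all genes were 22.3% lower and 23.2% higher at E15.5, and 26.7% lower and 26.7% higher at E17.5. Nectin1, an adhesion receptor that works beside cadherins, fell by 1.59 ± 0.11 and 1.94 ± 0.12 on the log2 scale (edgeR, adjusted p = 8.8e-07 and 1.4e-07). Ajuba, a LIM protein of adherens junctions, fell by 1.66 ± 0.12 and 1.77 ± 0.12, and Plekha7, which ties p120-catenin to microtubules, by 1.24 ± 0.11 and 1.59 ± 0.12. In this list 1 gene had effects that differed between the stages, Nectin3, named after its values were seen. It rose from 35.9 ± 4.0 to 55.0 ± 5.2 CPM at E15.5 and fell from 37.99 ± 2.2 to 29.5 ± 2.7 CPM at E17.5 (difference -0.98 ± 0.18, adjusted p = 0.010).

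Most relatives, partners and processing genes of Epcam fell. Of 7 genes 4 fell and 0 rose at E15.5 (median -0.94), and 5 fell and 2 rose at E17.5 (median -2.11). Over all genes 22.3% fell and 23.2% rose at E15.5, and 26.7% fell and 26.7% rose at E17.5. The matriptase gene St14, whose protease cuts Epcam, fell by 0.94 ± 0.11 and 2.19 ± 0.12 on the log2 scale (edgeR, adjusted p = 3.8e-05 and 5.3e-08). The matriptase inhibitor genes Spint1 (-1.19 ± 0.11 and -2.11 ± 0.12) and Spint2 (-1.80 ± 0.16 and -2.50 ± 0.17) fell likewise. The genes that rose at E17.5 were Cldn7 and Tspan8, at means of at most 2.06 CPM in every group, and neither call held without E17.5 control replicate 1 or 2 or without knockout replicate 2, and 1 of them held without knockout replicate 1. Among 6 genes of cadherin maturation and shedding, 3 fell and 1 rose at E15.5 and 2 fell and 1 rose at E17.5. Of all genes, 45.5% and 53.5% were called, and an excess over these shares was not tested. Cbll1, which encodes the ubiquitin ligase Hakai that acts on E-cadherin, fell by 0.51 ± 0.12 and 0.60 ± 0.12.

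**Figure D4:**
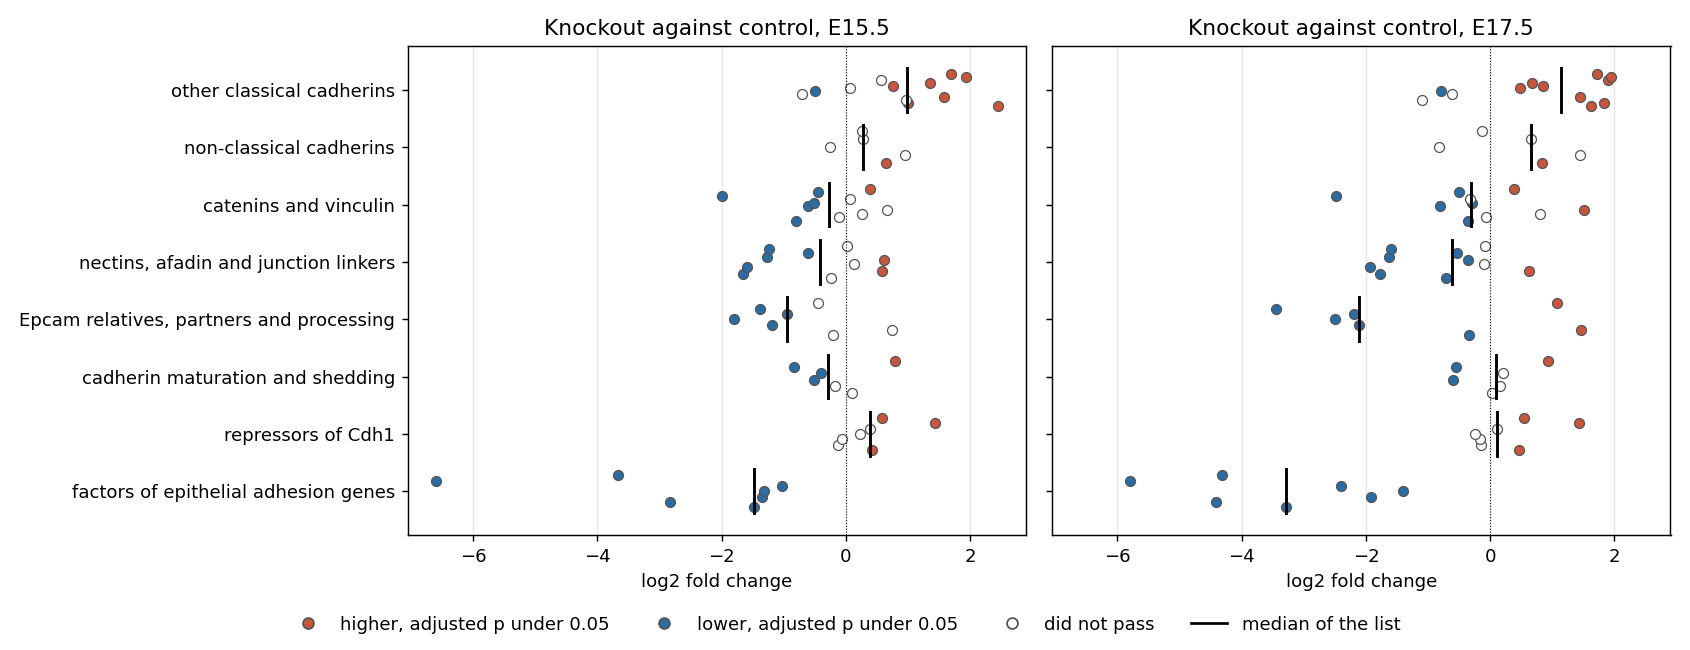
Log2 fold change of each tested gene of the 8 junction and regulator lists, knockout against control, at E15.5 (left) and E17.5 (right). Filled points passed the test (red higher, blue lower), open points did not, and bars mark the medians; all 7 factors of epithelial adhesion genes are lower and most other classical cadherins are higher.

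Of 7 repressors of Cdh1, 3 rose and 0 fell at each stage (medians 0.38 and 0.11), and the same 3 genes were called at both. Of all genes tested, 23.2% rose at E15.5 and 26.7% at E17.5, and 45.5% and 53.5% were called in either direction. An excess of the 7 genes over these shares was not tested. Zeb1, a zinc finger repressor that binds E-boxes of the Cdh1 promoter, rose from 55.8 ± 1.3 to 151 ± 1.1 CPM at E15.5 and from 52.2 ± 3.0 to 141 ± 1.1 CPM at E17.5. Its log2 fold change was 1.43 ± 0.09 at E15.5 and 1.44 ± 0.09 at E17.5 (edgeR, adjusted p = 3.7e-07 and 2.3e-07). Zeb2 rose by 0.59 ± 0.12 and 0.55 ± 0.12, and Snai1 by 0.42 ± 0.14 and 0.47 ± 0.14. With library totals as the scaling, 2 repressors were called lower at E17.5. Zeb1 and Zeb2 are also expressed by fibroblasts, whose markers rose by medians of 1.23 and 1.32 in these libraries, and the part of these cells in the rise of the repressors was not tested.

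All 7 transcription factors of epithelial adhesion genes fell at both stages (medians -1.47 and -3.29). Of all genes tested, 22.3% fell at E15.5 and 26.7% at E17.5. Grhl2, a Grainyhead factor that acts on Cdh1 in embryonic epithelia, fell from 50.2 ± 1.3 to 7.05 ± 1.1 CPM at E15.5 (-2.83 ± 0.14, edgeR adjusted p = 6.5e-08) and from 54.4 ± 6.1 to 2.55 ± 0.15 CPM at E17.5 (-4.41 ± 0.16, adjusted p = 4.2e-09). Trp63, which encodes p63, changed by -3.67 ± 0.16 and -4.33 ± 0.17, and Grhl1 by -1.47 ± 0.14 and -3.29 ± 0.15. Ovol2, a repressor of mesenchymal genes in epithelia, had 207 counts in E15.5 controls and 2 in E15.5 knockouts, a ratio of 109 (95% counting interval 29.9 to 908). As for Cdh1 and Cdh3, the knockout effect was larger at E17.5 for Grhl2 (difference -1.58 ± 0.21, adjusted p = 0.0016) and Grhl1 (-1.82 ± 0.20, adjusted p = 4.7e-04). Of the 7 factors, 3 passed this test of the difference, each lower, and 4 did not (median -0.65). Over all genes 4.35% passed it.

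The genes with the pattern most like each of the 5 genes were sought by Pearson correlation of log2 CPM over the 8 libraries, among the 13068 genes whose log2 CPM averaged 1 or more. With genotype parting the libraries, high values are common, and r is given as a description. For Cdh1 they were Dsg1a, a desmosomal cadherin gene of the upper layers (r = 0.9991), Cstdc5 (0.9991) and Rab25, a trafficking gene of epithelia (0.9986). For Cdh3 they were Cwh43 (0.9989), Irx4 (0.9988) and Cxadr, an adhesion receptor gene (0.9974). For Epcam they were Mecr, Lmo1 and Art4 (0.9968 each). Those of Cdh2 were Chp2 (0.9923), Csdc2 (0.9896) and Fsd1l (0.9859), and those of Cdh11 were Cpxm2 (0.9944), Maob (0.9930) and Gpx3 (0.9929). The size of a change does not enter r. At E15.5 the log2 fold change was -0.88 for Mecr, -3.78 for Lmo1 and -4.11 for Art4, against -2.09 for Epcam.

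Genes beside the Cdh3 and Cdh1 pair on chromosome 8, looked up after the values were seen, mostly fell too. Of 6 protein-coding neighbors, 4 fell at E15.5 and 5 at E17.5, and 0 rose. For comparison, 22.3% of all genes fell at E15.5 and 26.7% at E17.5. The part of the shared location in these falls was not tested. Zfp90, the next protein-coding gene before Cdh3, passed at neither stage and was at 0.09 ± 0.13 at E15.5 and 0.01 ± 0.13 at E17.5 (edgeR, adjusted p = 0.58 and 0.93). Tango6, the next after Cdh1, fell by 1.07 ± 0.16 and 0.42 ± 0.16 on the log2 scale. Smpd3, a sphingomyelinase gene before Zfp90, fell by 2.10 ± 0.26 and 2.18 ± 0.27. Prmt7, a gene of an arginine methyltransferase, was at -0.47 ± 0.12 and -0.31 ± 0.12 and passed at both stages. Chtf8 was at -0.23 ± 0.09 at E15.5 (adjusted p = 0.054) and fell by 0.37 ± 0.09 at E17.5. Has3, a hyaluronan synthase gene of keratinocytes beyond Tango6, fell by 4.12 ± 0.17 and 4.52 ± 0.18.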

How the data were processed

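Raw read counts per RefSeq transcript were used as deposited. Per the series design text and the submitters' processing notes, the authors aligned reads to mm10 with TopHat2 and counted them with HOMER. The HOMER version, strand setting and handling of multiply mapped reads are, in the sources used here, not given. Of 30521 transcripts, 29908 were named from RefSeq GRCm38.p6 and 182 from GENCODE M21, and 431 without a name (2.08% of counts) were left out. The 8 unnamed columns of 2 joined tables were not used.

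Counts were tested with edgeR 4.0.16 in R 4.3.3: filterByExpr, TMM scaling, and a quasi-likelihood fit with 1 mean per group over all 8 libraries. Contrasts were knockout against control at each stage, their difference, and E17.5 against E15.5 in each genotype. The p-values were adjusted by Benjamini-Hochberg over all 16342 genes, and the threshold was 0.05. The SE is the log2 fold change over the square root of F. Groups have 2 libraries, which may be technical replicates, so p-values measure only the spread between these samples.

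The genes and lists were chosen with earlier results of these data known. From each list, up to 3 called genes with the smallest adjusted p at each stage were named, and for each main gene the 3 most correlated genes, loci known only by a number passed over. Alternatives were other scalings and filters, DESeq2 1.42.0, voom in limma 3.58.1, summed transcripts, only the groups compared, a replicate block and leaving out each library. Counting intervals cover counting error only. Transcript lengths are from GENCODE M21. Some genes that the naming rule selected are not reported here.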

Additional observations from a re-analysis of the deposited data

Results flagged for a closer look

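The knockout effect differed between the stages for Cdh3 and Cdh1 by a test of the difference itself. Cdh3 fell by a further -1.24 on the log2 scale at E17.5, and Cdh1 by -0.79. Cdh3 kept this call with any 1 library left out, and Cdh1 lost it in 4 of the 8 such fits. No group was large enough to test a single library as far from the others.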

How the results depend on the processing

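The knockout calls of all 5 genes at E15.5 and E17.5 held under every alternative run. The Cdh1 difference between stages lost its call in 4 fits with 1 library left out, which gave -0.90 to -0.69 over the 8. Values near 0 that did not pass changed sign when a library was left out: Epcam's difference between stages (-0.22 to 0.0395; E17.5 control replicate 2), its change between control stages (-0.0069 to 0.26; the same library) and between knockout stages (-0.0711 to 0.12; -0.0111 without E15.5 replicate 1, the lowest without E17.5 replicate 2), Cdh11's between control stages (-0.072 to 0.11; E15.5 replicate 1 and, at -0.0307, E17.5 replicate 2), Cdh2's between knockout stages (-0.0398 to 0.17; E15.5 replicate 1) and the E15.5 log2 ratio of Cdh11 over Cdh2 (-0.15 to 0.37; control replicate 1, a setting added after the data were seen). With library totals only, Cdh3 passed between control stages (0.45).

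Counts over all genes moved by over 1.5 times in the smaller comparisons. For the difference between stages they were 308 higher and 403 lower, 142 and 655 with library totals, 517 higher with DESeq2, and 122 to 353 higher and 255 to 392 lower with a library left out. For control stages, 515 and 1259 became 1486 and 762 with library totals, and 176 to 521 and 490 to 1255 with a library left out. For knockout stages, 1012 and 1130 became 451 to 1075 and 709 to 1181.

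Deviations of libraries with the same replicate number correlated at -0.07 to 0.04 across genes, so no pairing by replicate number was seen. Sharing between samples that does not follow the number would not show in these values. With a replicate block the counts were 3774 higher and 3552 lower at E15.5, 4333 and 4265 at E17.5, and 363 and 407 for the difference, and no call of the 5 genes changed. Having 2 libraries a group and low counts limits genes under a few CPM, such as Cldn7 and Tspan8.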
